A study of Homo sapiens and Mus musculus with 20 samples.

Results

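Bulk RNA-seq was used to profile mouse gastrocnemius, the large calf muscle, after injection of MS-275. The members were chosen by their titles: 2 libraries labelled Muscle_MS-275 and the 2 libraries labelled Muscle_Control4 beside them, 4 of the 20 libraries in the series. Per the study's methods, 11-month-old female C57BL/6 mice received MS-275 into the gastrocnemius at 20 mg/kg for 7 days. The genotype label is WT in all 4 libraries, and the treatment label of Muscle_Control4 is None. Whether the control mice received a vehicle injection is not given in the sources used here. Nor is it given whether each library came from 1 mouse or from pooled mice. The p-values therefore concern only these libraries, and in limma the spread between them is moderated by a trend over genes of like level. The comparison asked how muscle gene expression differed after MS-275, which the study used to lower histone lactylation in muscle.

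MS-275, also called entinostat, blocks class I histone deacetylases, the enzymes that remove acetyl groups from histones and other proteins and that can also remove lactyl groups. Skeletal muscle is built of large multinucleated fibres packed with sarcomeres, the contractile units, and with mitochondria. Between the fibres lie fibroblasts, which make collagen, as well as vessels, nerves and immune cells. Matrix metalloproteinases are secreted or membrane-bound enzymes that cut collagen and other matrix proteins, and several of them belong to the set of proteins that senescent cells secrete. In bulk muscle, fewer cells of a type and less RNA per cell cannot be told apart.

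Before any gene was read, the names in the deposited lists were checked, because genes that every cell uses were missing while genes of silent families were present. The 4 libraries listed 10046 gene names, of which 9695 matched the mouse annotation of build mm10 (GENCODE M21). The check used 6135 mouse genes whose human namesake was abundant in the control libraries of IMR90, a line of human fetal lung fibroblasts sequenced in the same series, with a mean of at least 1000 over 4 libraries. Such broadly used genes should be present in most tissues, yet only 48.0% of them were listed in muscle. Along 6 stretches of chromosome, the listing was nearly complete: 251 of 256 such genes (98.0%) were listed inside the stretches and 2696 of 5879 (45.9%) outside. The share inside the stretches was one of the criteria that drew them and is given as a description only.

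Other gene families were counted too. Genes of the ribosome, proteasome, translation, splicing and respiratory families were listed in 12 of 12 cases inside the stretches and in 107 of 346 (30.9%) outside, but 8 of those 12 were themselves among the broadly used genes that drew the stretches. Of the family genes that were not, 4 of 4 were listed inside and 32 of 100 outside. Of olfactory receptor, vomeronasal receptor, keratin-associated and other families that muscle is not known to use, 0 of 13 were listed inside and 118 of 1773 (6.66%) outside. A count of 0 in 13 allows a share of up to 23.1%, so these families do not separate the stretches from the rest. In the 4 libraries of the other muscle experiment, whose listing was not used to draw the stretches, 250 of the same 256 broadly used genes were listed inside and 2549 of 5879 (43.4%) outside.

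The levels behind the listed names differed as well. Among the 251 listed broadly used genes inside the stretches, the level in muscle followed the level in IMR90 cells with a Spearman rho of 0.44, and the median level was 202 scaled reads per kb of exon. Among the 2696 listed genes outside, rho was 0.05 and the median level was 22.4 per kb. These are correlations across genes, which are not independent replicates and share the same libraries and gene lengths. Inside the stretches, rho was 0.28 among genes near the chromosome start, 0.56 in the middle and 0.50 towards the far end, with each stretch cut into 3 equal lengths. It was 0.09 over the 13 genes of the chromosome 18 stretch and 0.22 over the 25 genes of the chromosome 2 stretch, against 0.38 to 0.54 in the other stretches, so the names from these 2 chromosomes rest on weaker agreement.

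The stretches covered 152 Mb and each began near the start of its chromosome. In mm10 coordinates they ran from 3574875 to 59904737 on chromosome 4, from 5143861 to 38692446 on chromosome 15, from 3962595 to 31516811 on chromosome 6, from 3114224 to 20968881 on chromosome 2, from 4294793 to 13806481 on chromosome 9 and from 3382988 to 10818704 on chromosome 18. They held 587 listed genes. When only broadly used genes with a mean of at least 2000 were used, stretches were drawn on chromosomes 4, 6, 15 and 18 alone. The names from chromosomes 2 and 9, among them the called metalloproteinase genes and Bmi1, thus rest on the lower cutoff. Only these genes and those of the mitochondrial genome, which is a chromosome of its own, are described by name below.

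Outside the stretches, the place of signal near unlisted genes was described. Windows of 10 Mb with at least 8 unlisted genes, either broadly used or of muscle contraction and energy metabolism, were used. In each, the levels of listed names were read at every distance up to 600 kb from the exons of the unlisted genes. At distance 0 the level was low by construction, since the genes were chosen for having no listed reads, so it was not compared. The strongest signal lay between -582 and +598 kb over the 173 windows of 20 chromosomes, and in 101 of them within 100 kb of the median of its chromosome. On chromosome 7 the strongest signal lay at +266.5 to +423 kb in all 12 windows, with a median of +373 kb, and on chromosome 17 at -312.5 to -216.5 kb in all 7 windows. Elsewhere the scatter differed. Within 100 kb of the median lay 10 of 12 windows on chromosome 11 and 8 of 9 on chromosome 13. The counts were 8 of 10 on chromosome 9 and 4 of 5 on chromosome 6. Fewer did so on chromosome 3 (5 of 11), X (4 of 10), 8 (2 of 10), 4 (2 of 7) and 19 (0 of 4). A shared distance was thus seen on some chromosomes and not on others. Distances are positive towards higher coordinates, and the annotation used for counting is not given in the sources used here. Of 67 contractile and glycolytic genes, many but not all of which are abundant in muscle, 35 were listed. The names of skeletal actin Acta1, fast troponin Tnnt3 and aldolase Aldoa were not listed, and muscle creatine kinase Ckm had a mean of 45.0 scaled reads.

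**Figure D1:**
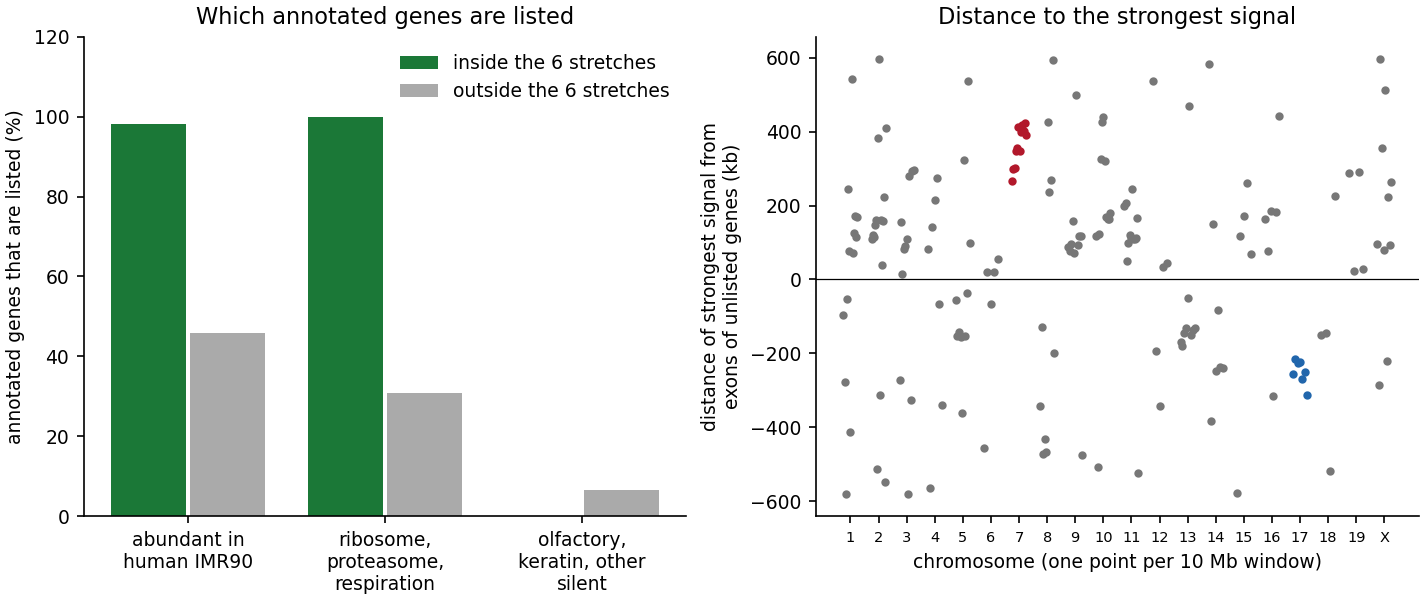
Left, percent of annotated genes that were listed in the 4 libraries, for 3 kinds of gene, inside (green) and outside (grey) the 6 stretches; the silent families inside stand at 0 of 13. Right, distance in kb between the exons of unlisted genes and the strongest signal, 1 point for each of the 173 windows of 10 Mb, by chromosome. The windows of chromosome 7 (red) lie between +266.5 and +423 kb and those of chromosome 17 (blue) between -312.5 and -216.5 kb. On the other chromosomes (grey) the scatter differs, from 8 of 9 windows within 100 kb of the median (chromosome 13) to 0 of 4 (chromosome 19).

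The 4 libraries held 10836858 to 12428070 reads, recovered from the deposited values, and between 9713 and 10028 genes above 0. The share of reads on mitochondrial genes was 22.0% and 21.9% in the MS-275 libraries and 39.0% and 30.8% in the control libraries, so the 2 groups did not overlap. With 2 libraries against 2, an exact permutation test cannot go below p = 0.333, and none is given for shares. The 10 most abundant nuclear names took 22.6% and 34.7% of nuclear reads after MS-275 and 40.1% and 46.6% in control muscle. The 6 stretches together took 12.9% and 10.1% of nuclear reads after MS-275 and 11.9% and 9.03% in control muscle, so these groups overlapped. Wilson 95% intervals of these shares were at most 0.0293 percentage points to either side and cover counting error only. After division by the authors' size factors, control libraries summed to 1.91 times the treated ones, and fold changes under equal library totals are therefore given below too.

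**Figure D2:**
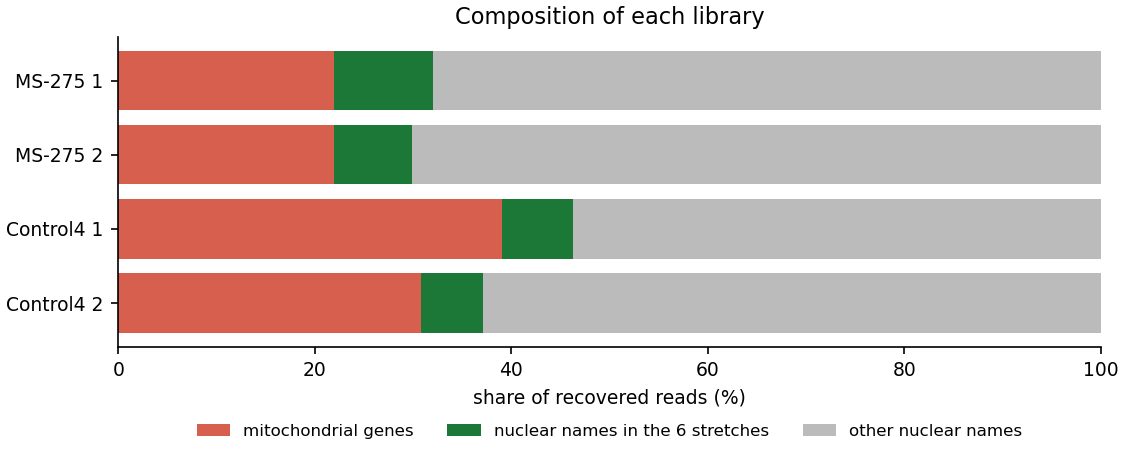
Share of recovered reads (%) in each of the 4 libraries on mitochondrial genes (red), on nuclear names in the 6 stretches (green) and on other nuclear names (grey). The mitochondrial share is 22.0% and 21.9% after MS-275 and 39.0% and 30.8% in control muscle.

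Of the 10 names with most reads, 6 were mitochondrial and 4 were nuclear, namely Myh13, Doc2a, Gm4316 and Tbc1d10b, which all lie outside the stretches and are not read as the genes they name. Of the markers fixed for muscle fibres, satellite cells, fibroblasts, endothelium, macrophages, neutrophils, lymphocytes, adipocytes, tenocytes, Schwann cells and erythroid cells, 0 lie in a stretch. The tissue label and the cell makeup could therefore not be checked by those markers. Inside the stretches, the thin-filament gene Tpm2, which encodes beta-tropomyosin, and Flnc, which encodes the sarcomere-associated filamin C, stood among the 10 genes with most reads.

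The mitochondrial genome encodes 13 proteins of the respiratory chain and ATP synthase, 2 ribosomal RNAs and a set of tRNAs. For all 15 protein and ribosomal RNA genes both MS-275 libraries had lower values than both control libraries. The log2 fold change between the group means ran from -2.83 to -0.90, with a median of -1.62, beside a median of 0.01 over all 9494 genes tested. limma with Benjamini-Hochberg adjustment over those genes called 4 of the 15 lower, at an adjusted p under 0.05 and a log2 fold change beyond 1. In this comparison 16.2% of all genes tested were called, 6.97% as lower, and the groups did not overlap in 64.9%.

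Complex IV passes electrons to oxygen. The counts of mt-Co1, its catalytic subunit, were 498241 and 666738 scaled reads after MS-275 and 2021372 and 1562540 in control muscle. All treated values lay below all control values, but the log2 fold change of -1.62 ± 1.56 (standard error from limma, 2 libraries per group, as in all values given so below) was not called (adjusted p = 0.50). limma moderates this error with a trend over the level of all genes, so it is not the spread of these values alone. Without the trend, 12 of the 15 mitochondrial genes had an unadjusted p under 0.05 in limma, against 6 with it, and 2 were called. For mt-Co2 the values were 4497 and 6610 after MS-275 and 36947 and 16468 in control muscle, and the log2 fold change of -2.18 ± 0.48 was called (adjusted p = 0.033). mt-Co3 stood at -2.43 ± 0.80 and was not called (adjusted p = 0.085).

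In ATP synthase, mt-Atp6 had 2229 and 3638 scaled reads after MS-275 and 27461 and 11222 in control muscle, a log2 fold change of -2.62 ± 0.50 (adjusted p = 0.023). For mt-Atp8 they were 141 and 116 against 911 and 513, a log2 fold change of -2.41 ± 0.34 (adjusted p = 0.012). Both of its subunits encoded in the mitochondrion were thus called.

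Complex I takes electrons from NADH. Of its 7 mitochondrial subunits 1 was called, mt-Nd4l, with 95.1 and 217 scaled reads after MS-275 and 1968 and 537 in control muscle, a log2 fold change of -2.83 ± 0.66 (adjusted p = 0.038). Its other subunits had log2 fold changes from -2.04 (mt-Nd2) to -1.55 (mt-Nd6) and were not called. mt-Cytb, the complex III subunit, stood at -1.47 and was not called either.

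The ribosomal RNAs were the least different. mt-Rnr1 had 24239 and 27728 scaled reads after MS-275 and 76742 and 30710 in control muscle. Its log2 fold change of -0.90 ± 0.58 was not called by limma (adjusted p = 0.31). The control libraries differed from each other by more than the lower of them differed from the treated ones. Of the 5 mitochondrial tRNA genes listed, 4 were tested and 0 were called by limma, edgeR or DESeq2, while mt-Tp had an unadjusted p of 0.029 in limma.

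These mitochondrial counts carry 3 measured limits. Nuclear pseudogenes in the same annotation matched mt-Atp6, mt-Co2, mt-Co3, mt-Nd3 and mt-Nd4l at 99.7% to 100% identity over at least 99.0% of their length. Reads of these genes may thus have been split or dropped, and mt-Atp6, mt-Co2 and mt-Nd4l are 3 of the 4 that were called. Mean scaled reads per kb of exon ran from 2093 (mt-Nd3) to 23583 (mt-Co2) in these genes. mt-Atp8, the other called gene, had 2061 per kb. The remaining protein genes had 183148 (mt-Nd5) to 768429 (mt-Co1) per kb and were not called. The calls thus fell on protein genes with few reads for their length. Exons of mt-Atp8, mt-Atp6 and mt-Co3 overlap in a row, as do those of mt-Nd4l and mt-Nd4 and those of mt-Nd5 and mt-Nd6 on opposite strands, and the strand setting of the counting is not given in the sources used here. With equal library totals the median of the 15 was -0.67 and 14 of them still stood lower, while mt-Rnr1 stood at 0.05, and limma called 5. With quantile normalization the median was -0.30, 12 of the 15 stood lower, mt-Cytb stood at 0, mt-Rnr1 at 0.10 and mt-Co1 at 0.23, and limma called 4. edgeR called 4 and DESeq2 called 14 of the 15, and limma called 0 without MS-275 replicate 1, MS-275 replicate 2 or control replicate 1, where 3, 5 and 4 of them had an unadjusted p under 0.05.

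**Figure D3:**
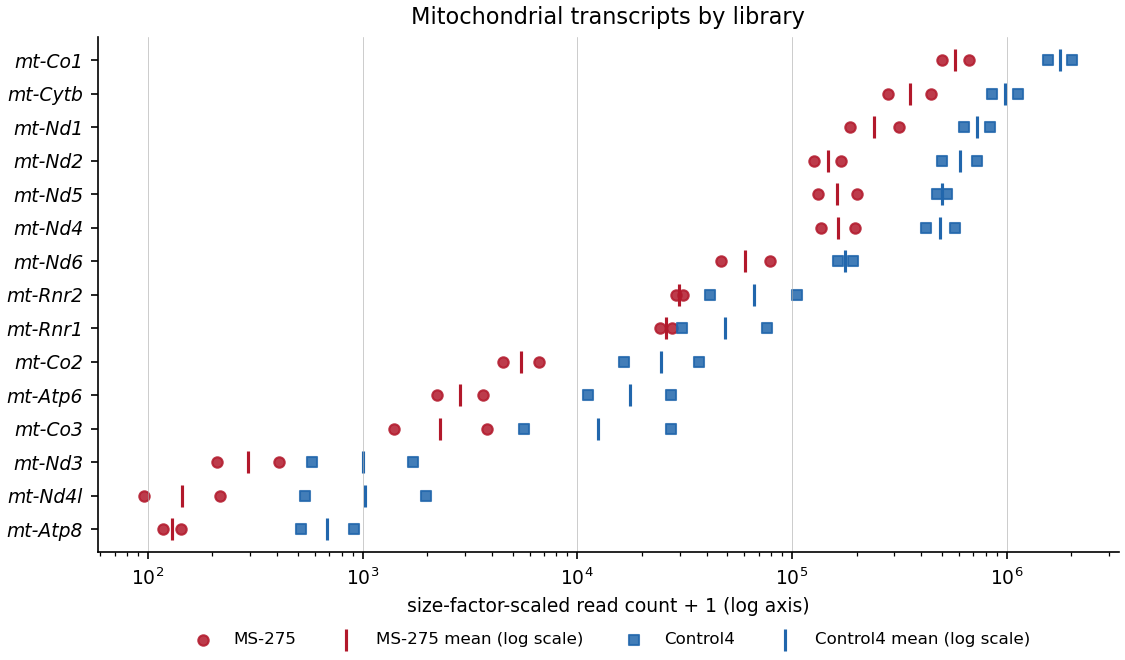
Scaled read counts plus 1 (log axis) of the 15 mitochondrial protein and ribosomal RNA genes in each MS-275 library (red circles) and each control library (blue squares), with vertical ticks at the group means on the log scale. In every row both red points lie left of both blue points; under equal library totals 14 of the 15 keep that direction in their fold change and mt-Rnr1 stands at 0.05, and under quantile normalization 12 keep it.

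In the 6 stretches 563 genes were tested. limma called 115 of them (20.4%), 79 higher and 36 lower after MS-275, that is 14% and 6.39% of those tested, beside 9.24% and 6.97% over all tested genes. The median log2 fold change was 0.09 in the stretches and 0.01 over all genes. The genes called higher had log2 fold changes from 1.09 to 6.07 with a median of 2.52, and those called lower from -4.70 to -1.04 with a median of -1.61. On chromosome 9, where the metalloproteinase genes lie, 7 of 28 tested genes were called higher and 0 lower. On chromosome 4 the counts were 36 and 17 of 253, on chromosome 15 12 and 8 of 91, on chromosome 6 15 and 4 of 98, on chromosome 2 6 and 6 of 59, and on chromosome 18 3 and 1 of 34.

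These calls rest on few libraries. Without MS-275 replicate 1 limma called 0 genes in the stretches, although 193 kept an unadjusted p under 0.05 and edgeR called 110. Without MS-275 replicate 2 limma called 60, without control replicate 1 it called 29 and without control replicate 2 it called 73, while edgeR called 162, 0 and 34 (127 at an unadjusted p under 0.05 where it called 0). All 79 rises and all 36 falls kept their sign in each of these fits. In limma that was fixed beforehand, since the groups of every called gene did not overlap. MS-275 replicate 1 held the higher value of the treated pair in 56 of the 79 rises and the lower value in 27 of the 36 falls.

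Matrix metalloproteinase genes were called higher. Of 11 list members annotated in the stretches 6 were listed and tested, and limma called 4 higher and 0 lower. In 5 of the 6 the control mean was under 10, so they passed the filter on low values only through the treated libraries, and no median over them is given. The gene of stromelysin 1, Mmp3 (chromosome 9, 7445822 to 7455975), whose enzyme cuts many matrix proteins and activates other metalloproteinases, had 4201 and 2381 scaled reads after MS-275 and 46.7 and 45.2 in control muscle. Both treated libraries lay far above both controls, with a log2 fold change of 6.07 ± 0.33 (adjusted p = 0.0043), and the value was 5.67 without MS-275 replicate 1 (adjusted p = 0.088).

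The macrophage elastase gene Mmp12 (chromosome 9, 7344381 to 7369499) had 221 and 55.5 scaled reads after MS-275 and 0 and 2.74 in control muscle. Over both libraries of a group that was 423 reads against 2, a ratio of 114 with a 95% counting interval from 31.3 to 943 (limma adjusted p = 0.016). For Mmp8, which encodes the collagenase of neutrophils, the values were 131 and 49.5 against 0 and 2.74, a ratio of 72.6 from 270 reads against 2, with an interval from 19.9 to 603 (limma adjusted p = 0.018). The control values of both genes rest on 2 reads. The intervals cover counting error only and not the spread between libraries.

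Collagenase 3, encoded by Mmp13 (chromosome 9, 7272514 to 7283331), cuts fibrillar collagen. Its values were 37.1 and 75.2 scaled reads after MS-275, and 0 reads were seen in either control library. It was at least 26.5-fold higher, taking 3 reads over the control group as the floor (limma adjusted p = 0.013). Mmp27, next to Mmp8, had 30.3 and 22.2 against 5.19 and 0 and was not called (adjusted p = 0.077), nor was Mmp16 on chromosome 4, which encodes a membrane-bound member (11.1 and 28.2 against 5.19 and 8.22, adjusted p = 0.27). The genes not listed in the stretches were Mmp1a, Mmp1b, Mmp7, Mmp10 and Mmp20.

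Among matrix genes, Col1a2, which encodes the alpha 2 chain of type I collagen, rose. It had 23911 and 46883 scaled reads after MS-275 and 2393 and 5155 in control muscle. Both treated values exceeded both controls several times over, and the log2 fold change was 3.25 ± 0.52 (adjusted p = 0.015). Without MS-275 replicate 1, MS-275 replicate 2 or control replicate 1 the fold change was 3.74, 2.77 or 2.70 and was not called. Col15a1, a collagen of basement membranes, had 1335 and 1545 against 802 and 1829 and was not called (adjusted p = 0.71). Of the 2 members of the extracellular matrix list in the stretches, then, 1 was called higher.

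Irf5, the 1 member of the inflammation list in a stretch, was called higher. The gene encodes a transcription factor that drives inflammatory cytokine genes and had 1229 and 819 scaled reads after MS-275 and 243 and 125 in control muscle, a log2 fold change of 2.52 ± 0.39 (adjusted p = 0.014). Its exons overlap those of Tnpo3, so part of its reads could belong to that gene. Il7r, Cd72 and Tfec, which are known from immune cells, were picked by the rule for the largest rises and belong to no list tested here. Il7r, the alpha chain of the interleukin 7 receptor on lymphocytes, had 1645 and 44.4 against 3.89 and 2.74. One treated library held nearly all its reads: the log2 fold change was 6.0 ± 1.52 (adjusted p = 0.045), and without MS-275 replicate 1 it was 3.41 (adjusted p = 0.10).

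Cd72, a receptor of B cells and some macrophages, had 716 and 167 scaled reads after MS-275 and 6.49 and 6.85 in control muscle, a log2 fold change of 5.50 ± 0.69 (adjusted p = 0.0098), with exons that overlap Tesk1. Tfec, a transcription factor of the microphthalmia family found in macrophages, had 156 and 97.4 against 7.78 and 5.48, a log2 fold change of 4.04 ± 0.50 (adjusted p = 0.0095). Il7r, Cd72 and Tfec had control means of 3.32, 6.67 and 6.63. They passed the filter on low values only through the treated libraries, so they could be called only as rises. As no marker of the fixed immune cell lists lies in a stretch, the part of immune cells in these rises was not tested.

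Other rises picked by the rule were of mixed function. Otulinl, a catalytically inactive relative of a deubiquitinase, had 861 and 468 scaled reads after MS-275 and 15.6 and 32.9 in control muscle (4.75 ± 0.47). Tmeff1, a transmembrane protein with follistatin-like domains, had 342 and 337 against 10.4 and 42.4 (3.94 ± 0.62), and the mitochondrial aldehyde dehydrogenase gene Aldh1b1 had 154 and 232 against 15.6 and 13.7 (3.61 ± 0.40). In each the lowest treated value was several times the highest control value.

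Basp1, a membrane-bound protein of growth cones, had 1301 and 437 scaled reads against 75.2 and 63.0 (3.44 ± 0.51). Galnt12, which starts mucin-type O-glycan chains, had 207 and 44.4 against 2.59 and 1.37. That was a ratio of 69.4 from 387 reads against 3, with an interval from 23.6 to 338 that covers counting error only. Mms22l, which acts in recombination at stalled replication forks, and Melk, a kinase of dividing cells, had 160 and 88.8 against 0 and 8.22 and 145 and 115 against 0 and 17.8. Galnt12, Mms22l and Melk had control means of 1.98, 4.11 and 8.90. They too passed the filter on low values only through the treated libraries. The calls of Mms22l and Melk rest on control values close to the floor. That of Melk (limma adjusted p = 0.049) was lost with DESeq2 (adjusted p = 0.21).

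**Figure D4:**
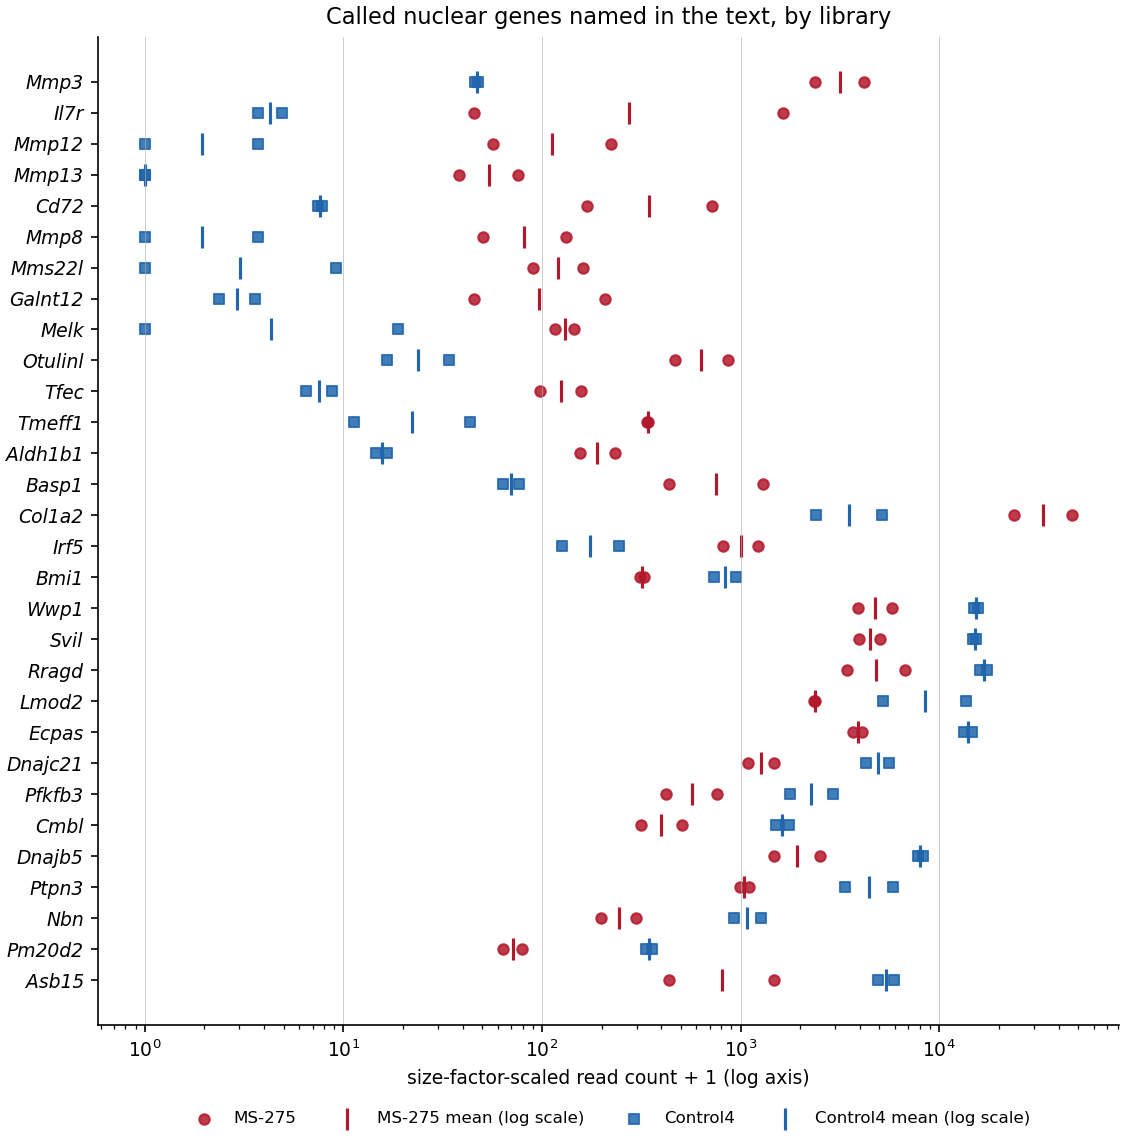
Scaled read counts plus 1 (log axis) of the 30 called nuclear genes named by rule in the 6 stretches, in each MS-275 library (red circles) and control library (blue squares), with ticks at the group means on the log scale, sorted by fold change. Mmp3 lies at 4201 and 2381 after MS-275 against 46.7 and 45.2. The 14 genes from Bmi1 down to Asb15 lie lower after MS-275, and 6 of them stay called under equal library totals.

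Of the 3 members of the proteostasis and atrophy list in the stretches, 2 were called lower. Ecpas, which encodes a scaffold bound to the proteasome, had 4084 and 3692 scaled reads after MS-275 and 14572 and 13333 in control muscle, a log2 fold change of -1.84 ± 0.29 (adjusted p = 0.015). Wwp1, a ubiquitin ligase, had 3891 and 5776 against 15619 and 14993, a log2 fold change of -1.69 ± 0.34 (adjusted p = 0.026). Vcp, the ATPase that extracts ubiquitinated proteins, had 8583 and 10595 against 16881 and 16984 and was not called (-0.83 ± 0.34, adjusted p = 0.14). Under equal library totals neither call held: Ecpas stood at -0.89 and Wwp1 at -0.73, within the fold change minimum, and Vcp turned to 0.13.

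Asb15, a muscle member of the family that recruits targets to cullin ubiquitin ligases, showed the largest fall that the rule picked. Its values were 436 and 1481 after MS-275 and 4925 and 5947 in control muscle, a log2 fold change of -2.75 ± 0.55 (adjusted p = 0.026). The co-chaperone gene Dnajb5 had 1480 and 2510 against 7784 and 8257 (-2.06 ± 0.33), and Dnajc21, a co-chaperone of ribosome assembly, had 1085 and 1482 against 5599 and 4308 (-1.95 ± 0.29). Groups without overlap were a condition of the rule that named these 3 genes. Under equal library totals Asb15 and Dnajb5 stayed called at -1.79 and -1.10, and Dnajc21 at -0.995 was just short of the fold change minimum.

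Genes tied to actin filaments gave mixed results. Lmod2, which encodes leiomodin 2, a protein that lengthens thin filaments, had 2384 and 2333 scaled reads after MS-275 and 13653 and 5242 in control muscle, a log2 fold change of -1.84 ± 0.47 (adjusted p = 0.045). Svil, which encodes the actin-binding supervillin, had 3960 and 5066 against 14888 and 15378, a log2 fold change of -1.76 ± 0.31 (adjusted p = 0.019). Tpm2 had 59854 and 63327 against 333560 and 250851, without overlap, but was not called by limma (-2.23 ± 0.71, adjusted p = 0.077). Tpm2, the 1 member of the contractile list in a stretch, was called lower by DESeq2 (adjusted p = 1.2e-10) and by limma under equal library totals (-1.27, adjusted p = 0.018). Lmod2 and Svil stood at -0.88 and -0.80 under equal totals and were not called there.

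Filamin C, encoded by Flnc, gave 44038 and 31064 scaled reads after MS-275 and 42612 and 24826 in control muscle, so the groups overlapped (0.19 ± 0.51, adjusted p = 0.83). Other abundant muscle genes of the stretches were not called either: Capza2, which caps actin filaments, stood at -0.73 ± 0.46, Ppp1r3a, which targets a phosphatase to glycogen, at -1.09 ± 0.50 and Rab2a, a vesicle GTPase, at -0.22 ± 0.41. Musk, the receptor kinase of the neuromuscular junction, had 247 and 400 against 161 and 268 (0.59 ± 0.37, adjusted p = 0.31).

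Among metabolic genes, Pfkfb3, which makes the activator of glycolytic phosphofructokinase, fell from 2917 and 1769 scaled reads in control muscle to 421 and 761 after MS-275 (-2.00 ± 0.39, adjusted p = 0.024). Rragd, a Rag GTPase that brings amino acid signals to mTORC1, had 3443 and 6717 against 16042 and 17470 (-1.80 ± 0.41, adjusted p = 0.034). Under equal library totals Pfkfb3 stayed called at -1.05 and Rragd, at -0.84, did not. Pdk4, a kinase that shuts off pyruvate dehydrogenase during fasting, had 19610 and 8201 against 83036 and 5352. The control libraries of Pdk4 stood far apart, 1 above and 1 below both treated libraries, and no difference was detectable (adjusted p = 0.70).

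The rule also named Pm20d2, a dipeptidase (63.0 and 78.6 against 355 and 331), Cmbl, a hydrolase (316 and 504 against 1510 and 1746), and Ptpn3, a tyrosine phosphatase (993 and 1100 against 5836 and 3362). Each was lower after MS-275, in groups that the rule required not to overlap. Their log2 fold changes were -2.27, -2.02 and -2.08, with adjusted p-values of 0.0096, 0.013 and 0.014 by limma.

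Of the 3 members of the DNA repair list in the stretches 1 was called lower and 0 higher, while Mms22l, which is not on that list, was called higher as given above. Nbn, a subunit of the complex that senses double-strand breaks, had 297 and 198 scaled reads after MS-275 and 1271 and 923 in control muscle, a log2 fold change of -2.15 ± 0.31 (adjusted p = 0.012). Under equal library totals Nbn stood at -1.20 and was not called (adjusted p = 0.058). Xpa, which verifies damage in nucleotide excision repair, had 272 and 282 against 213 and 190 and was not called (0.46 ± 0.25), and its exons overlap Ncbp1. Epc1, a subunit of an acetyltransferase complex, stood at -0.80 ± 0.23 and was not called (adjusted p = 0.065). Bmi1, the 1 member of the cell cycle list in a stretch and a Polycomb protein that maintains stem cells, had 327 and 309 against 950 and 737, a log2 fold change of -1.39 ± 0.25 (adjusted p = 0.020). That call was lost under equal library totals (-0.44, adjusted p = 0.31) and under equal totals over nuclear reads (-0.70, adjusted p = 0.17).

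The study named 18 genes from this comparison. Only 5 of them lie in a stretch: Mmp3, Mmp8, Mmp13 and Irf5 were called higher and Bmi1 lower, the last with the authors' size factors but not under either equal-totals scaling. The study chose these genes on the same libraries, so their directions are not independent evidence. The other 13, among them Cdkn1a, Ercc1, Tpp2, Mmp9 and Ccl5, lie outside the stretches, and no value is given under their names. No gene of the histone deacetylase and acetyltransferase list lies in a stretch, so the targets of MS-275 were not read. The lists of fat oxidation and of immediate early stress genes had no member in a stretch either.

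Scaling set the balance of the calls. When libraries were set to equal totals, the median log2 fold change became 0.97 over all genes and 1.04 in the stretches, and limma called 218 higher and 8 lower there; with equal totals over nuclear reads the medians were 0.70 and 0.78 and the calls 173 and 14. All 79 rises stayed called under both. Of the 36 falls, 7 stayed called under equal library totals and 13 under equal nuclear totals. All 36 kept their sign under both. These scalings moved the median over all genes by less than the fold change minimum, so that was nearly fixed beforehand. Of the 14 genes called lower that are named above, 6 stayed called under equal library totals and 11 under equal nuclear totals. Mmp27, Musk and Xpa, not called with the authors' factors, were called higher under equal library totals. Which scaling is closer to RNA content per fibre cannot be told apart with these libraries.

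**Figure D5:**
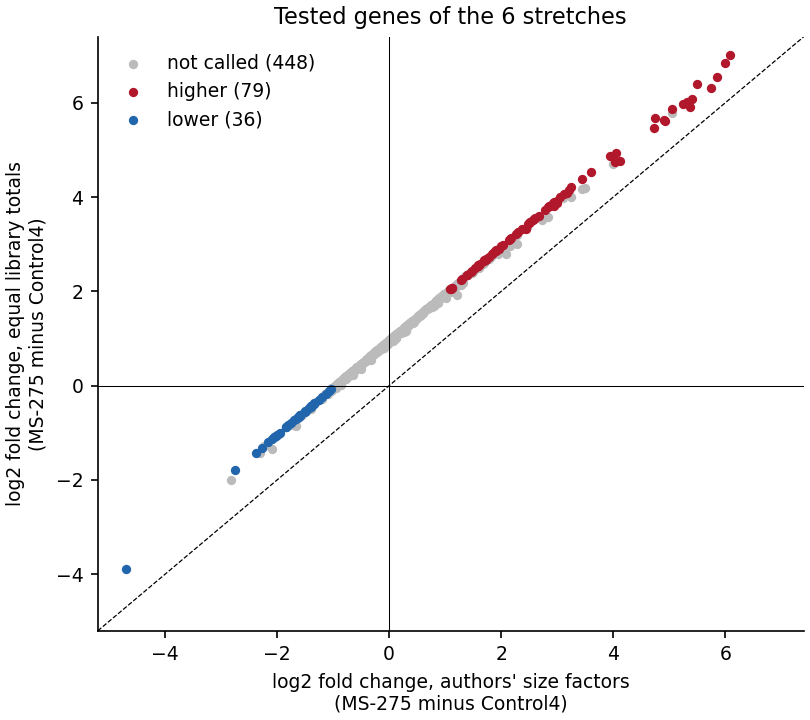
Log2 fold change (MS-275 minus control) of the 563 tested genes of the 6 stretches with the authors' size factors (horizontal) and with equal library totals (vertical); red, 79 called higher; blue, 36 called lower; grey, 448 not called; dashed line, equality. The points lie above the line by about the median shift of all genes, 0.97. Every blue point was called below -1, so a shift of that size leaves it below 0 on both axes.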

How the data were processed

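RNA-seq was analysed in 4 mouse muscle libraries. Per the methods and processing notes, the authors trimmed reads with Trim Galore 0.6.10, aligned them with HISAT2 2.2.1 to mm10, counted genes with featureCounts 2.0.6 (annotation and strand not given in the sources used here) and normalized with DESeq2 1.34.0. The deposited values are a signal: read counts divided by 1 size factor per library. All values (100%) were whole multiples of 1 read within a relative tolerance of 0.001, so reads were recovered. Large values meet such a tolerance in any case, so only low values test this.

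Genes with a mean of at least 10 were tested on log2(value + 1) with limma 3.58.1 (eBayes with trend, two-sided, Benjamini-Hochberg over all genes tested), which understates changes of low genes. Calls needed an adjusted p under 0.05 and a log2 fold change beyond 1. edgeR 4.0.16 and DESeq2 1.42.0 ran on recovered reads as alternatives. On simulated data limma recovered 49.3% of planted 4-fold and 2.99% of planted 2-fold changes among 9494 genes, with 9 false calls. The simulation planted 200 changes, nearly balanced in direction, and limma used the size factors that made the counts. Error from the choice of scaling is therefore not covered by it. Replicate pairs differed by far more than sampling noise (chi-square per gene 65.4 and 108) and were kept apart.

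The rule first set for trustworthy names split each chromosome once by whether ribosomal, respiratory and olfactory genes were listed. Its regions listed only 53.0% of broadly used genes, so 6 stretches of at least 5 Mb and 10 broadly used genes, 95% of them listed, were used after seeing the data. Nuclear pseudogene copies of mitochondrial genes were sought with BLAST 2.17.0. Named genes were the mitochondrial genes; called members of pathway lists with the 3 most abundant uncalled ones; the 12 largest rises and 12 largest falls among called coding genes whose higher group averaged 100 or more and whose groups did not overlap (Gm and Rik names left out); the 10 most abundant; and the study's own genes. Members and lists were chosen with earlier results of these data known. No sequence is shown.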

Additional observations from a re-analysis of the deposited data

How the results depend on the processing

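All genes gave 1539 calls and the mitochondrial genes 4, the named stretch genes 30 of 43 tested and the 6 stretches 115. The single-split regions set first gave 888. With equal library totals the counts were 3067 over all genes, 1713 in the split regions and 226 in the stretches; with equal totals over nuclear reads they were 2399, 1342 and 187. Without the eBayes trend they were 690, 384 and 42, with 2 mitochondrial and 19 named genes. DESeq2 called 14 mitochondrial genes. Regions ended at the first failed gene gave 106 calls, the first 10 Mb gave 150 and the 6 stretches 115, as fewer genes were tested. Leaving out 1 library gave 0 to 873 calls over all genes by limma (0 without MS-275 replicate 1, with 2689 at an unadjusted p under 0.05) and 14 to 2184 by edgeR, with 483 without control replicate 2. In the split regions the ranges were 0 to 497 and 9 to 1221, in the stretches 0 to 73 and 0 to 162, for mitochondrial genes 0 to 6 and 0 to 11, and for named genes 0 to 22 and 0 to 32, where edgeR without control replicate 2 gave 274, 34 and 15 in the split regions, the stretches and the named genes. With 3 libraries the lone sample of a group is assumed to vary like the others. The cause of these differences was not tested.

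The other alternatives, namely the pseudocount, the filter on low values, recomputed factors, quantile normalization, edgeR on all 4 libraries, a fold minimum of 0.58, the replicate block and broadly used genes with a mean of at least 2000 (94 calls in the stretches), kept each count within 1.5 times, although quantile normalization moved the median of the mitochondrial genes from -1.62 to -0.30. With the cutoff of 2000 no stretch was drawn on chromosomes 2 and 9, so the called metalloproteinase genes lay outside. With the factors recomputed over the 6 stretches the split in them was 75 higher and 46 lower. Same-numbered libraries shared only a number: their deviations correlated at -0.11. The replicate block gave 1556, 891, 5, 30 and 116 calls for all genes, split regions, mitochondrial genes, named genes and stretches, and the crossed pairing, added after seeing the data, gave 1730, 981, 5, 30 and 132. For 58 single genes, 1054 of 1272 values kept their side of the threshold, 176 lost a call, 42 gained one and 0 called values reversed; 22 values of 10 uncalled genes changed sign or reached 0. In the simulation 2-fold changes were mostly not called, with 2 libraries per group and a call that needs a log2 fold change beyond 1. Depth limits genes such as Mmp8, Mmp12 and Mmp13, whose control values rest on 0 to 2 reads.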

Other observations

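Further genes of the 6 stretches were called by limma and are given as values; they were chosen after their values were seen. Among genes of macrophages and innate defence, Mrc1, the mannose receptor, had 261 and 75.2 scaled reads after MS-275 and 9.08 and 23.3 in control muscle (log2 fold change 3.17 ± 0.72), and Lyn, a Src-family kinase, had 1794 and 1036 against 333 and 274 (2.17 ± 0.33). The inflammatory caspase genes Casp1 and Casp4 rose by 2.26 ± 0.50 and 2.37 ± 0.39, the RNA sensor gene Ddx58 by 1.89 ± 0.32 and Birc3, an inhibitor of apoptosis, by 1.7 ± 0.36. Abca1, the cholesterol exporter, had 3303 and 4776 against 745 and 875 (2.30 ± 0.28). These genes lie on 3 chromosomes. Both treated libraries exceeded both controls in each, as they did in all 79 called rises of the stretches. The groups did not overlap, in either direction, in 67% of the tested stretch genes. Their cell types were not tested.

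Further rises were also chosen after their values were seen, and their cell types were not tested. On the fixed extracellular matrix list, 1 of the 2 members in the stretches, Col1a2, was called higher and Col15a1 was not. Vim, which encodes the intermediate filament vimentin, had 7938 and 10214 scaled reads after MS-275 and 1522 and 3185 in control muscle (2.03 ± 0.41). Svep1, a large matrix protein, had 2765 and 2579 against 291 and 360 (3.04 ± 0.24), and Penk, the enkephalin precursor, had 490 and 460 against 32.4 and 89.0 (3.12 ± 0.48). Smo, the transducer of Hedgehog signals, rose by 1.84 ± 0.33, and Adamts12, a matrix protease, by 1.78 ± 0.38.

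Some genes known from dividing cells were among those called higher, picked after their values were seen; the 1 member of the cell cycle list in a stretch, Bmi1, was called lower. Smc2, a condensin subunit, had 506 and 443 scaled reads after MS-275 and 75.2 and 80.8 in control muscle (2.59 ± 0.26). Skp2, which marks cell cycle inhibitors for destruction, had 158 and 141 against 42.8 and 24.6 (2.16 ± 0.40), and Fancg, of the Fanconi repair complex, 376 and 325 against 79.1 and 94.5 (2.00 ± 0.28). Mcm10, a replication factor, was called at an adjusted p of 0.0499 by limma.

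Among the falls, Retreg1, a receptor for autophagy of the endoplasmic reticulum, had 2967 and 3223 scaled reads after MS-275 and 11419 and 8021 in control muscle (-1.63 ± 0.31). Optn, an autophagy receptor, had 131 and 166 against 496 and 398 (-1.59 ± 0.28). Decr1, which acts in the oxidation of unsaturated fatty acids, had 2015 and 2476 against 5675 and 6093 (-1.40 ± 0.27), and Ndufaf4, an assembly factor of complex I, 1020 and 1131 against 2872 and 2611 (-1.35 ± 0.24). The noncoding RNA gene Gm12514 had 2.47 and 1.71 against 81.7 and 75.3, the largest fall in the stretches. Its treated values lay near the floor. It passed the filter on low values only through the control libraries, so it could be called only as a fall. Under equal library totals only Gm12514, at -3.89, stayed called, with Retreg1, Optn, Decr1 and Ndufaf4 at -0.67, -0.63, -0.44 and -0.39.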
